A study of Homo sapiens with 12 samples.

Results

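The loops described here are exonic circular RNAs (circRNAs) of genes that gave many different circles. They were chosen as all exonic circRNAs whose host gene had 8 or more distinct exonic circRNAs with at least 1 back-splice junction read over the 12 libraries of the study. This rule found 1181 loops of 113 hosts, which is 15.2% of the 7784 exonic loops with a read and 3.31% of the 3415 named hosts with such a loop. Across the libraries they held 10533 junction reads, or 16.7% of all exonic reads of named hosts. T98G and LN229, the source of the libraries, are established cell lines from human glioblastoma, a malignant brain tumour. Both were kept in hypoxia (1% O2, 5% CO2) or in normoxia (95% air, 5% CO2), and each of the 4 groups, T98G hypoxia, T98G normoxia, LN229 hypoxia and LN229 normoxia, held 3 libraries. No group carried a transgene or a drug per the labels, the length of the hypoxia is not stated in the labels, and neither is whether replicate libraries are separate cultures.

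A circRNA forms when the spliceosome joins the end of an exon (a donor site) back to the start of the same or an earlier exon (an acceptor site). One pre-mRNA can give several loops in this way, by pairing 1 acceptor with different donors or 1 donor with different acceptors, and this is known as alternative back-splicing. Long introns on both sides of a loop, often with inverted repeats that can pair, and several RNA-binding proteins are known to favour back-splicing. Loops have no free ends and are in general more stable than linear RNA, and many are abundant in brain tissue. Below, the start of a loop is its acceptor and its end is its donor, read along the gene's strand.

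The sequences that tell loops of 1 host apart lie at the junction. They are shown for hosts that illustrate 1 dominant loop, a shared start and a shared end. In each, the last 20 bases of the donor exon are in lower case and the first 20 bases of the acceptor exon in capitals, 5′ to 3′ along the gene's strand. Letters come from GENCODE 29 transcripts (GRCh38), to which the loops were matched by gene, strand, genomic span and spliced length, and exon numbers are those of the matched transcript. Positions are those of the deposited table (hg19). The dominant loops are those of SPECC1, a cytospin family gene, at chr17:20107646-20109225 (plus strand, 1580 nt, 1 exon), and of FAM13B at chr5:137320946-137324004 (minus strand, 331 nt).
SPECC1 exons 4-4: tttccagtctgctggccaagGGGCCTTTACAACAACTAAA
FAM13B exons 8-10: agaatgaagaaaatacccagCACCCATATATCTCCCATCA
In RARS, the cytoplasmic arginyl-tRNA synthetase gene, and in DLG1, which encodes a scaffold protein of cell junctions, the capitals are the same in every loop of a host because the start is shared. The RARS loops lie at chr5:167915607-167921655 and chr5:167915607-167924353 (plus strand). The DLG1 loops lie at chr3:196842798-196846401, chr3:196831774-196846401 and chr3:196817783-196846401 (minus strand).
RARS exons 2-5: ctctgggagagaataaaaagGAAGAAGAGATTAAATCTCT
RARS exons 2-7: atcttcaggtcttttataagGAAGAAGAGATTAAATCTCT
DLG1 exons 13-14: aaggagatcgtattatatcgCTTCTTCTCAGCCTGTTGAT
DLG1 exons 13-15: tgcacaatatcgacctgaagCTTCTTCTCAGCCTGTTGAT
DLG1 exons 13-16: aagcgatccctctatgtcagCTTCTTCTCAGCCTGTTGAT
In ATXN10, the ataxin 10 gene, and in TRIO, the lower-case part is the same because the end is shared. The ATXN10 loops lie at chr22:46125305-46136418, chr22:46096162-46136418 and chr22:46085592-46136418 (plus strand). The TRIO loops lie at chr5:14316622-14336836, chr5:14304570-14336836 and chr5:14290825-14336836 (plus strand).
ATXN10 exons 7-9: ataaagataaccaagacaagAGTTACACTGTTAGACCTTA
ATXN10 exons 4-9: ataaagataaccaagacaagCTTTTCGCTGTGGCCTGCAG
ATXN10 exons 2-9: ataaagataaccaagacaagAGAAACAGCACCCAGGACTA
TRIO exons 9-11: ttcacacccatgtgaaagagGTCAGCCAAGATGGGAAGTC
TRIO exons 8-11: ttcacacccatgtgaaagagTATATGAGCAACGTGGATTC
TRIO exons 5-11: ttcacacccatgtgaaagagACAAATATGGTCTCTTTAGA

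Depth was low, and some libraries lay nearer to another group than to their own. Reads on these loops numbered 718 to 1119 per library, of 4298 to 7608 junction reads in all, so 1 read was worth 131 to 233 CPM (read counts scaled to library size) before TMM scaling. Across the 244 circRNAs with enough reads for testing, the library labelled LN229 normoxia replicate 3 correlated at r = 0.0711 and r = 0.0808 with the other LN229 normoxia libraries, but at r = 0.73 to 0.786 with those of T98G hypoxia (log2 CPM, across circRNAs, which are not independent replicates). With LN229 hypoxia replicates 1, 2 and 3, LN229 normoxia replicate 3 correlated at r = 0.765, 0.523 and 0.246. LN229 normoxia replicates 1 and 2 correlated at r = 0.719 to 0.752 with T98G normoxia replicates 1 and 2. The library labelled T98G normoxia replicate 3 correlated at r = 0.39 and r = 0.425 with its own group and at r = 0.613 to 0.634 with T98G hypoxia. LN229 hypoxia replicate 1 correlated at r = 0.571 and r = 0.323 with its own group and at r = 0.724 to 0.787 with T98G hypoxia. LN229 hypoxia replicate 3 correlated at r = 0.323 with replicate 1 and r = 0.684 with replicate 2 of its group. With LN229 normoxia replicates 1 and 2 it correlated at r = 0.482 and r = 0.439. Loops of CYP24A1, the vitamin D 24-hydroxylase gene, which is not among the 113 hosts, followed the same split. In hypoxia they held 18.1 to 21.5% of the junction reads in T98G and 22.6%, 5.61% and 0.0177% in LN229. In normoxia they held 11.3% in T98G replicate 3 and 24.7% in LN229 replicate 3, but at most 0.0419% in the other libraries. The labelled groups were used throughout, and counts of calls are also given without normoxia replicate 3 of both lines. LN229 hypoxia replicates 1 and 3 stay in that setting. Since the 2 normoxia libraries were picked for their distance from their own group, more calls without them follow in part from that choice. None of 26 marker genes of other cell types had an exonic loop with a read, and the table holds no linear RNA by which the lines could be checked.

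The number of loops per host ran from 8 to 27, with a median of 9. BIRC6, a giant inhibitor of apoptosis that also acts in ubiquitination, and PTK2, focal adhesion kinase, had the most, with 27 each. UBAP2, which encodes a ubiquitin-associated protein, followed with 21, and NBAS, a gene of Golgi-to-endoplasmic-reticulum transport, with 19. PCNXL2, a pecanex family gene, and PICALM, which encodes a clathrin assembly protein, had 18 each. KMT2C, a histone H3 lysine 4 methyltransferase gene, PPP6R3, which encodes a regulatory subunit of protein phosphatase 6, TRIO, and XPO1, the nuclear export receptor gene, had 17 each. At the threshold, 32 hosts had exactly 8 loops, with 20 to 551 reads (median 42.5), and 46 hosts just outside it had 7 loops, with 18 to 459 reads (median 41). Many loops and many reads were different things: SPECC1, with only 8 loops, had the most reads of the 113 hosts (551), and PPP6R3 spread 48 reads over its 17 loops. After SPECC1, the hosts with the most reads were XPO1 with 458, RARS with 438, PTK2 with 332 and MPP6, which encodes a membrane-associated guanylate kinase family protein, with 304. ATXN10 had 287, UBAP2 and RNF13 (a RING-type ubiquitin ligase gene) 216 each, TBC1D31 (a gene of a centrosome-associated TBC domain protein) 210 and FAM13B 201.

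Most loops were rare. A single read supported 132 of the 1181 loops and 2 reads supported 257, while the 230 loops with 10 or more reads held 67.9% of the reads. Only 36 loops were read in all 12 libraries and 336 in 1 library. Loops limited to 1 line had few reads: 704 loops were read in both lines, 224 in T98G only (none with more than 8 reads) and 253 in LN229 only (none with more than 7). Likewise 685 were read in both oxygen levels, 266 in hypoxia only and 230 in normoxia only. No loop with 10 or more reads was limited to 1 line. A single loop with 10 or more reads was limited to 1 oxygen level, that of RPH3AL, a gene of a Rab effector family in secretion, at chr17:96902-177370, which is named after its values were seen. It had 1, 2 and 5 reads in T98G hypoxia and 4, 0 and 0 in LN229 hypoxia, and none in the 6 normoxia libraries.

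Sharing of back-splice sites was common. The 1181 loops used 651 starts and 776 ends. A start shared with another loop of the host was found for 802 loops (67.9%), a shared end for 675 (57.2%), and at least one of the sites was shared by 1042 (88.2%); 435 loops shared both sites, each with another loop. In 47 hosts every loop shared a site with another. Fewer starts than ends were used in 67 hosts, fewer ends than starts in 21, and equal numbers in 25. Among the hosts with fewer loops, a site was shared by 78.1% of the loops of hosts with 4 to 7 loops and by 61.1% of those of hosts with 2 or 3. The number of loops is what the rule used, and with more loops a host has more chances of sharing, so these shares are given without a test. At the other end, only 20% of the loops of DYNC1H1, the cytoplasmic dynein heavy chain gene, shared a site (2 of 10).

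Among the 5 hosts with the most loops on 1 start, that start was exon 2 or 3 where an exon is given below. Shared starts further along the gene also occurred, as at exon 13 in DLG1. TBC1D31 had 10 of its 13 loops on the start of exon 2, which together held 202 of its 210 reads. PICALM had 9 of 18 loops on 1 start, PTK2 had 7 of 27 on exon 3, and DOCK1 and SLC4A7 (a sodium bicarbonate cotransporter gene) had 7 each on exon 2. Of the 112 hosts whose most shared start could be given an exon number, it was exon 2 in 44. Shared ends gathered fewer loops: TRIO had 7 of 17 loops on the end of exon 11 (89 of 125 reads), UBAP2 6, and ATXN10, TBCD (a tubulin folding cofactor gene) and PCNXL2 5 each. The busiest start of a host served a median of 4 loops and the busiest end a median of 3. The map of exons held by loops shows both arrangements side by side.

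**Figure D1:**
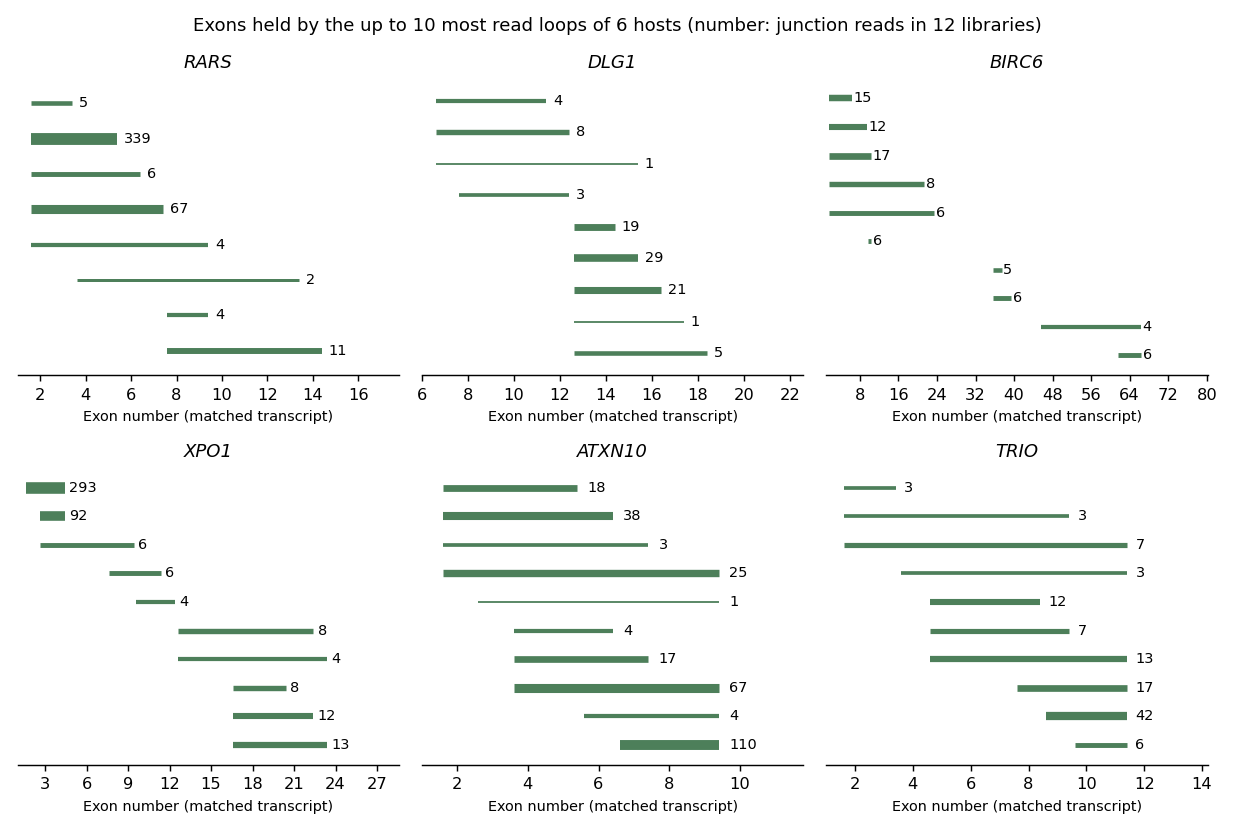
Exons held by the loops of RARS, DLG1, BIRC6, XPO1, ATXN10 and TRIO, with exon number in the matched transcript on the horizontal axis; each bar is 1 loop from its first to its last exon, its thickness grows with the log of the reads, and the number beside it is its junction reads over the 12 libraries. Up to 10 of the most read loops matched to 1 transcript are drawn per host: in RARS and DLG1 bars line up on the left at a shared start (exons 2 and 13), in ATXN10 and TRIO on the right at a shared end (exons 9 and 11).

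Pairs of loops within a host were classed by their positions. Of 6300 pairs, 3021 did not overlap, 1055 overlapped with neither inside the other, 619 were nested with different sites, 1018 shared a start and 587 shared an end. Loops of a host therefore often came from separate stretches of the gene: in XPO1, the 2 main loops hold exons 2 to 4 and 3 to 4, while loops of exons 17 to 23 and 17 to 22 had 13 and 12 reads. Sites a few bases apart were rare. With sites within 5 nt counted as 1, the number of loops that shared a site was again 1042. The exceptions were MPP6, where starts at chr7 24663282 and 24663285 lay 3 nt apart with 17 and 223 reads on exonic loops, and CLASP2, a microtubule plus-end protein gene, where starts 3 nt apart had 4 and 7 reads.

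Exon content was given by matching to transcripts, which succeeded for 1151 of the 1181 loops (1109 in the transcript named in the deposited table). The loops held a median of 5 exons (quartiles 3 and 8, at most 29), against 4 (quartiles 2 and 6) for the 6320 matched exonic loops of other hosts. Loops of 1 exon numbered 24 and included the leading loop of SPECC1 and the second loop of NFATC3, a transcription factor gene, from exon 2. The spliced length had a median of 688 nt, from 97 nt in ATXN2 to 7368 nt in KMT2C, against 534 nt in other hosts. Host transcripts held a median of 26 exons (10 to 98), against 14 in other hosts. Exon 2 was the first exon of 262 loops (22.8%), against 33.7% of the loops of other hosts; by reads the shares were 35.4% and 37.3%. Exon 1 was the first exon in 1 loop, and 1 loop held the last exon. Loops lay wholly within the coding sequence in 87.2% of cases, against 80.3% in other hosts, and of these coding loops 348 of 1004 (34.7%) had a length divisible by 3, against 38.2% in other hosts.

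The introns beside these loops were long. The intron before the start had a median of 7983 nt and the intron after the end 7531 nt, against 8157 and 6893 nt for loops of other hosts. Both are longer than the typical intron of these genes, whose median over the hosts was 3104 nt (2573 nt in other hosts): 80.5% of the loops had an upstream intron and 81.9% a downstream intron longer than the median intron of their own transcript. The leading loops had 10402 and 11635 nt, against 7803 and 7351 nt for the rest of the loops of these hosts. A circBase identifier was carried by 1068 loops (90.4%), which held 97.3% of the reads, against 85.1% of the loops of other hosts. The 113 loops without one had at most 7 reads, reached in PHC3, a polycomb group gene. Loops and hosts share genes and libraries, so these values are a description.

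Dominance of 1 loop varied widely between hosts. The leading loop, the one with the most reads over all libraries, took a median of 31.3% of its host's exonic reads (quartiles 25 and 40.5%). It took over 75% in 5 hosts, over 50% in 15 and under 25% in 28. The 113 leading loops together held 4481 reads, 42.5% of the total. The highest share was that of SPECC1, where the exon 4 loop took 511 of 551 reads, or 92.7% (95% Wilson interval 90.3 to 94.6%). FAM13B followed with 80.1% (74.0 to 85.0%) on exons 8 to 10, RARS with 77.4% (73.3 to 81.1%) on exons 2 to 5, BPTF (a subunit of the NURF chromatin remodeller) with 76.4% (69.3 to 82.3%) on exons 23 to 29, and MIB1 (a ubiquitin ligase gene of Notch signalling) with 76.3% (68.5 to 82.7%) on exons 2 to 6. Intervals cover counting error only, since reads are not known to be independent molecules. These hosts had 8 or 9 loops each, whereas XPO1 combined 17 loops with a leading share of 64.0% (59.5 to 68.2%).

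Other hosts had no dominant loop. Among hosts with at least 60 reads, the lowest leading shares were 11.1% in NBAS (9 of 81 reads, on each of 2 loops), 12.1% in BIRC6 (17 of 141), 17.8% in PTK2 (59 of 332), 19.4% in SLC4A7 (18 of 93) and 19.7% in PCNXL2 (29 of 147). The number of equally used loops that would give the same evenness, the inverse of the summed squared shares, was 16.1 in BIRC6 and 13.1 in NBAS, against 1.16 in SPECC1 and a median of 5.48. In PTK2, 4 loops that all start at exon 3 were close in abundance, with 59 reads on exons 3 to 7, 58 on exons 3 to 5, 49 on exons 3 to 4 and 47 on exons 3 to 10. The leading loop shared a site with another loop in 110 of the 113 hosts, used the start that served the most loops in 75 and the end that served the most loops in 59.

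**Figure D2:**
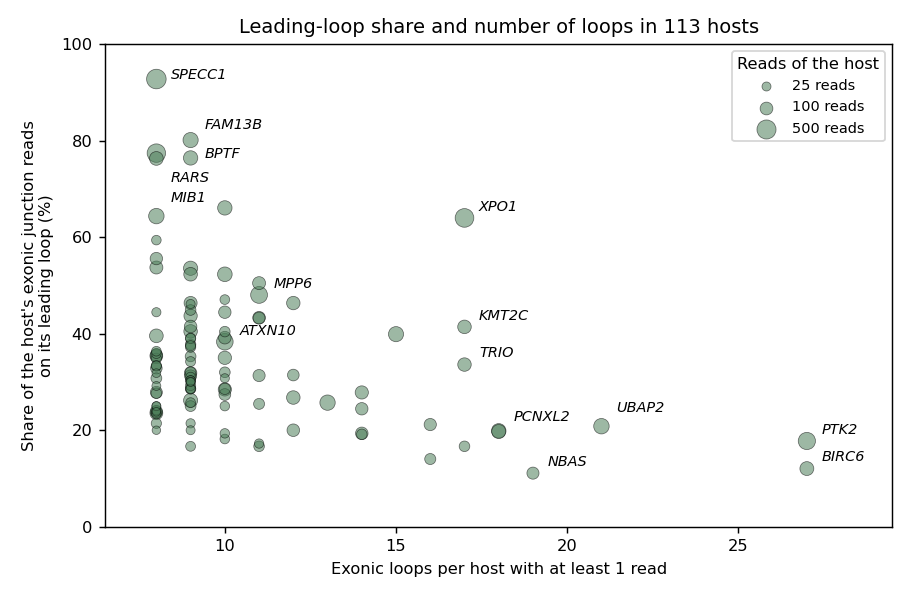
Share of each host's exonic junction reads on its leading loop (vertical axis, %) against its number of exonic loops (horizontal axis), 1 circle per host for the 113 hosts, with the area growing with the square root of the host's reads. SPECC1, FAM13B, RARS, BPTF and MIB1 stand above 75% with 8 or 9 loops, XPO1 at 64.0% with 17, and BIRC6 and PTK2 at 12.1% and 17.8% with 27.

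Lists of genes by function held 64 of the 113 hosts, and 49 hosts, among them MPP6, UBAP2, FAM13B and TBC1D31, were in none. Counts are given of the list's genes with an exonic loop, beside the 3.31% of all named hosts that are members. The ubiquitin system had 8 member hosts of 73, with 102 loops and 872 reads, with RNF13, BIRC6 and MIB1 the most read. RNA processing and transport had 9 of 72, with 92 loops and 1592 reads, led by XPO1, RARS and ATXN10. Chromatin regulators had 10 of 75, with 100 loops and 660 reads, led by BPTF and KMT2C. Cytoskeleton and motor genes had 12 of 56, with 105 loops and 1092 reads, of which SPECC1 had 551, and adhesion and matrix genes had 6 of 38, with 83 loops and 816 reads, led by PTK2 and TRIO. Trafficking and glycosylation had 7 of 82, with 81 loops, led by PICALM, kinase and GTPase signalling 4 of 94 with 46, cell cycle and centrosome genes 4 of 57 with 40, led by CEP192, and DNA repair and replication genes 3 of 49 with 24, led by DNA2. Of 42 hypoxia response and metabolism genes with an exonic loop, 1 was a member, PDK1 (pyruvate dehydrogenase kinase), with 8 loops and 24 reads. On summed reads, no host of any of these lists passed in any comparison. Lists and members were chosen with results known, so these shares carry no test.

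Whether the loops as a whole responded to oxygen or differed between lines was asked with 3 values per library. Their share of exonic reads was 15.5, 16.2 and 15.6% in T98G hypoxia, against 17.4, 19.1 and 17% in T98G normoxia, and 15, 18.4 and 18.5% in LN229 hypoxia, against 16.7, 17.9 and 14.7% in LN229 normoxia. In T98G all hypoxia libraries were below all normoxia libraries, and in LN229 the groups overlapped. Averaged over the lines, hypoxia minus normoxia was -0.601 percentage points (exact stratified permutation test over 400 arrangements, two-sided, p = 0.525, adjusted over 6 tests 0.788; the smallest possible p is 0.005), and T98G minus LN229 was -0.0693 points (adjusted p = 0.955). This share depends on the CYP24A1 reads in its denominator: without CYP24A1 loops the oxygen difference was 1.33 points, of the opposite sign, and the line difference 0.585 points.

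Diversity and dominance were compared in the same way. At an equal depth of 718 reads, the number of distinct loops averaged 324.0 ± 9.14 in T98G hypoxia and 339.2 ± 9.97 in T98G normoxia, and 336.9 ± 15.9 in LN229 hypoxia and 331.6 ± 13 in LN229 normoxia (SD, n = 3 each). The differences were -4.98 loops for oxygen and -2.64 for line (exact permutation, adjusted p = 0.788 and 0.924). The share of reads on leading loops averaged 43.9 ± 2.06% in T98G hypoxia and 40.3 ± 1.99% in T98G normoxia, and 42.7 ± 1.33% in LN229 hypoxia and 43.1 ± 1.87% in LN229 normoxia. Hypoxia minus normoxia was 1.59 points and T98G minus LN229 was -0.77 points (exact permutation, adjusted p = 0.788 for both). In none of the 3 values did a difference exceed the spread between libraries in this test. The SPECC1 loop, at most 7.91% of these reads in a library, bore on the last value: without SPECC1 the oxygen difference was -0.713 points (exact permutation p = 0.445).

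**Figure D3:**
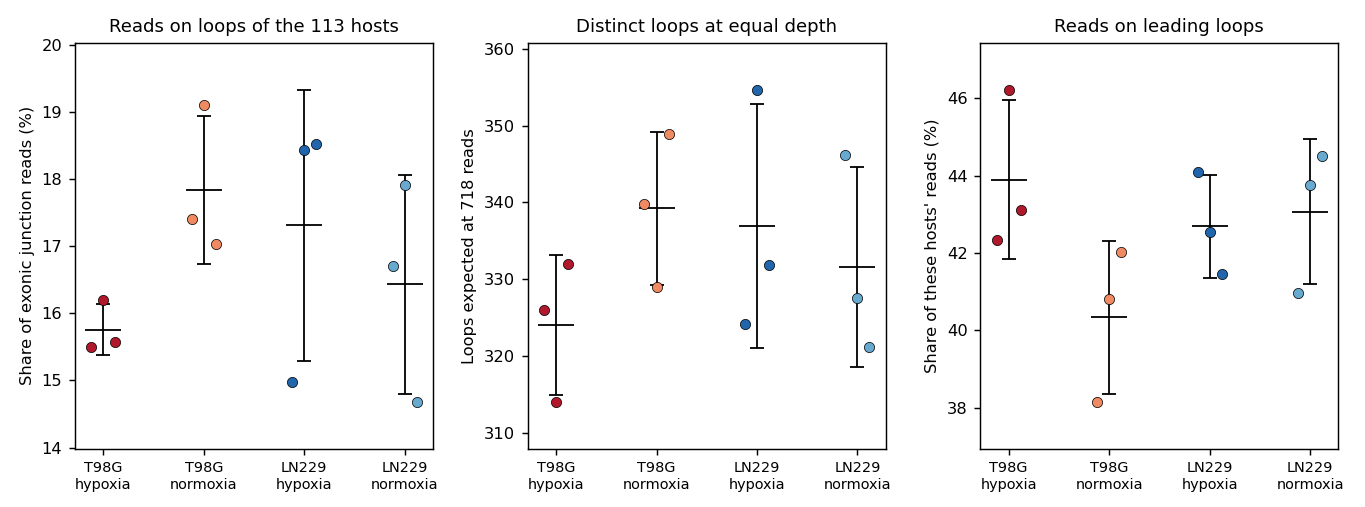
The 3 values per library for the loops of the 113 hosts, by group: their share of all exonic junction reads (%), the number of distinct loops expected at 718 reads, and the share of their reads on leading loops (%); points are libraries, horizontal bars means and whiskers SD (n = 3), and the axes do not start at 0. T98G hypoxia lies below T98G normoxia in the first value and above it in the third (42.3 to 46.2% against 38.2 to 42.0%), while the LN229 groups overlap in all 3. The first value has CYP24A1 reads in its denominator and the third includes the SPECC1 loop. Averaged over both lines, the oxygen difference of each changed sign without that gene, and the panels do not show the T98G libraries without these genes.

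Single loops were tested where at least 5 reads were present in at least 3 libraries. This left 50 of the 1181 loops, from 34 hosts, among the 244 circRNAs tested and the rest were too rare to test. No member loop passed (edgeR quasi-likelihood F test, Benjamini-Hochberg adjusted p over all tested circRNAs, threshold 0.05) in any of the 5 comparisons. For T98G hypoxia against normoxia, 0 of 50 passed, where 0.41% of all tested circRNAs did; 7 had an unadjusted p under 0.05, where 20.9% of all tested did. For LN229 hypoxia against normoxia, 0 passed (0% of all tested) and 2 had p under 0.05 (8.2% of all tested). For hypoxia averaged over both lines, 0 passed (4.1% of all tested) and 6 had p under 0.05 (19.3% of all tested). For T98G against LN229, 0 passed (0%) and 2 had p under 0.05 (2.87%), and for the response in T98G less that in LN229, 0 passed (0%) and 6 had p under 0.05 (7.79%). DESeq2 called 0 member loops in each. The median log2 fold change of the 50 loops was -0.06 in T98G and -0.13 in LN229, against -0.02 and -0.04 over all tested circRNAs. Without normoxia replicate 3 of both lines, 45 member loops were left to test. In T98G 6 of them passed, where 18.1% of all tested circRNAs did, in LN229 2 passed (6.48% of all tested), for the average 7 passed (23.6% of all tested), and in the 2 other comparisons 0 passed (0% of all tested).

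The leading loop of SPECC1 had the smallest p among member loops in hypoxia against normoxia averaged over both lines. It had 47, 63 and 59 reads in T98G hypoxia, against 6, 6 and 39 in T98G normoxia, and 59, 82 and 58 in LN229 hypoxia, against 11, 12 and 69 in LN229 normoxia. All T98G hypoxia libraries were above all T98G normoxia ones, but in LN229 the library labelled normoxia replicate 3 reached the hypoxia level, so the groups overlapped. Scaled to library size, it averaged 10220 ± 2280 CPM in T98G hypoxia and 2730 ± 2770 in T98G normoxia, and 10520 ± 1290 in LN229 hypoxia and 4799 ± 4840 in LN229 normoxia (SD, n = 3 each). The average log2 fold change was 1.49 (SE 0.46, edgeR adjusted p = 0.0854). It passed without normoxia replicate 3 of both lines (log2 fold change 2.86), without either of those libraries alone (2.16 and 2.13) and with the replicate number as a block (1.87). In each line, CYP24A1 reads were high in the libraries in which SPECC1 was high, apart from LN229 hypoxia replicate 3, and their part in the difference was not tested.

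PDE8A, a cyclic AMP phosphodiesterase gene, had a loop of exons 13 to 20 with 6, 5 and 4 reads in T98G hypoxia, against 1, 0 and 2 in T98G normoxia, and 3, 2 and 7 in LN229 hypoxia, against 1, 2 and 4 in LN229 normoxia. The average log2 fold change was 1.5 (SE 0.65, edgeR adjusted p = 0.228). Only hypoxia libraries held the 5 reads the filter asks for, namely T98G replicates 1 and 2 and LN229 replicate 3. The PDE8A loop was thus tested only through the condition in which it was high. The other loops higher in hypoxia included RNF13 exons 3 to 9 (chr3:149563798-149639014). It had 23, 22 and 20 reads in T98G hypoxia, against 3, 9 and 13 in T98G normoxia, and 8, 12 and 6 in LN229 hypoxia, against 4, 5 and 14 in LN229 normoxia. The groups did not overlap in T98G (log2 fold change 1.42, SE 0.49, edgeR adjusted p = 0.136) and overlapped in LN229, and the average was 0.78 (SE 0.36, adjusted p = 0.25). The leading loop of FAM13B had 24, 21 and 12 reads in T98G hypoxia, against 5, 8 and 9 in T98G normoxia (log2 fold change 1.40, SE 0.45, edgeR adjusted p = 0.119), and 11, 18 and 10 in LN229 hypoxia, against 17, 8 and 18 in LN229 normoxia. For FAM13B the T98G response minus the LN229 response was 1.58 (SE 0.62, adjusted p = 0.568), so the difference between the lines did not pass. Without LN229 normoxia replicate 3, the T98G fold changes of RNF13 and FAM13B were 1.48 and 1.47 on the log2 scale and both passed. That library is not part of the T98G contrast. It bears on the test only through the fit, in which the 4 groups share the estimate of spread, the filter and the scaling.

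DNAH14, a gene of axonemal dynein heavy chains, had its 2 tested loops on the start of exon 2. The loop of exons 2 to 8 had 6, 15 and 9 reads in T98G hypoxia, against 0, 0 and 2 in T98G normoxia, and 7, 2 and 0 in LN229 hypoxia, against 0, 0 and 10 in LN229 normoxia (T98G log2 fold change 3.78, SE 1.26, edgeR adjusted p = 0.119). The loop of exons 2 to 10 had 7, 5 and 7 reads in T98G hypoxia, against 0, 0 and 3 in T98G normoxia, and 9, 2 and 0 in LN229 hypoxia, against 0, 0 and 11 in LN229 normoxia. In LN229, both loops had the most reads in hypoxia replicate 1 and normoxia replicate 3, where CYP24A1 loops were also at their highest, and none in hypoxia replicate 3, where CYP24A1 loops had 1 read. The part of those libraries in the difference was not tested. The T98G fold change of exons 2 to 8 ran from 3.27 to 6.48 with 1 library left out, the highest without T98G normoxia replicate 3, and it passed without LN229 normoxia replicate 3 (3.83). That LN229 library bears on the T98G contrast only through the shared fit. A count of 0 allows up to 3 reads.

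Loops lower in hypoxia were led by XPO1 exons 2 to 4 (chr2:61749746-61761038, 307 nt). It had 16, 14 and 26 reads in T98G hypoxia, against 37, 35 and 28 in T98G normoxia, and 15, 14 and 23 in LN229 hypoxia, against 35, 37 and 13 in LN229 normoxia. The average log2 fold change was -0.80 (SE 0.34, edgeR adjusted p = 0.219). Leaving out normoxia replicate 3 in both lines gave -1.01, which passed, as it did without LN229 normoxia replicate 3 alone (-0.94). CEP192, a gene of centriole duplication, had a loop of exons 2 to 15 with 0, 1 and 1 reads in T98G hypoxia, against 4, 5 and 4 in T98G normoxia, and 1, 2 and 5 in LN229 hypoxia, against 7, 5 and 1 in LN229 normoxia. In T98G its groups did not overlap (log2 fold change -2.47, SE 1.10, edgeR adjusted p = 0.208). The RARS loop of exons 2 to 7 (T98G -1.29, SE 0.64) and the CEP192 loop of exons 2 to 9 (T98G -0.97, SE 0.54) also lay lower in T98G hypoxia with adjusted p of 0.245 and 0.338. Averaged over both lines, CEP192 exons 2 to 15 was at -1.60 (SE 0.71, adjusted p = 0.233) and the leading loop of RARS at -0.48 (SE 0.29, adjusted p = 0.397).

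In LN229, the smallest p among member loops belonged to PTK2 exons 3 to 4 (chr8:141889570-141900868). It had 9, 6 and 11 reads in LN229 hypoxia, against 1, 2 and 3 in LN229 normoxia, and 3, 2 and 3 in T98G hypoxia, against 3 in each T98G normoxia library. Only the LN229 hypoxia libraries held the 5 reads the filter asks for. The PTK2 loop was thus tested only through the group in which it was high, and its p is no independent support. The LN229 groups did not overlap (log2 fold change 2.02, SE 0.65, edgeR adjusted p = 0.204), and the T98G response minus the LN229 response was -2.15 (SE 0.96, adjusted p = 0.568). RBM39, a splicing factor gene, had 3, 6 and 9 reads on its tested loop in LN229 hypoxia, against 2, 0 and 1 in LN229 normoxia (log2 fold change 2.42, SE 0.93, adjusted p = 0.288). Within LN229, only hypoxia replicates 2 and 3 held the 5 reads the filter asks for, and outside LN229 only T98G normoxia replicate 3 did. In the LN229 contrast the RBM39 loop thus entered only through the group in which it was high. On the lower side, ATXN2, the ataxin 2 gene, had 1, 5 and 0 reads in LN229 hypoxia, against 5, 8 and 4 in LN229 normoxia (log2 fold change -1.55, SE 0.87, adjusted p = 0.696). In T98G the same loop had 8, 4 and 2 reads in hypoxia, against 2, 1 and 2 in normoxia, with groups that did not overlap in scaled reads, and the T98G response minus the LN229 response was 3.01 (SE 1.26, edgeR adjusted p = 0.568). With 1 library left out the LN229 value ran from -3.14 without hypoxia replicate 2 to -0.99 without hypoxia replicate 3. The SNX13 loop of exons 6 to 9 had 3, 5 and 4 reads in LN229 hypoxia, against 12, 7 and 4 in LN229 normoxia (-0.98, SE 0.75, adjusted p = 0.791), and the XPO1 loop of exons 2 to 4 was at -0.78 (SE 0.48, adjusted p = 0.708). The MIB1 loop of exons 2 to 6 was at 0.89 in LN229 (SE 0.50, adjusted p = 0.696).

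The response in T98G less that in LN229 was also large for PTPRM, a receptor tyrosine phosphatase gene, and RBM39, but passed for neither. The PTPRM loop of exons 9 to 14 had 7, 4 and 7 reads in T98G hypoxia, against 0, 0 and 3 in T98G normoxia, and 1, 1 and 0 in LN229 hypoxia, against 1, 0 and 6 in LN229 normoxia (difference 4.16, SE 1.83, edgeR adjusted p = 0.568). It rested on few reads: with 1 library left out, for the 9 libraries where it could still be tested, that difference ran from 3.69 to 7.37, the highest without T98G normoxia replicate 3. Only T98G hypoxia replicates 1 and 3 and LN229 normoxia replicate 3 held the 5 reads the filter asks for. The PTPRM loop was thus tested only through groups that raise this difference. RBM39 had 3, 2 and 2 reads in T98G hypoxia against 4, 1 and 5 in T98G normoxia. Its T98G response minus its LN229 response was -2.84 (SE 1.29, edgeR adjusted p = 0.568). Only LN229 hypoxia replicates 2 and 3 and T98G normoxia replicate 3 held the 5 reads. The RBM39 loop was thus tested only through groups that lower this difference. For ANKIB1, a gene with ankyrin repeats, it was -1.41 on the loop of exons 2 to 5 (SE 0.94, adjusted p = 0.738), which had 5, 3 and 4 reads in T98G hypoxia, against 6, 7 and 4 in T98G normoxia, and 2, 16 and 18 in LN229 hypoxia, against 3, 7 and 8 in LN229 normoxia. Leaving out LN229 hypoxia replicate 3 brought that to -0.90.

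Groups that did not overlap were counted beside the same count for all tested circRNAs. In T98G, 20 of the 50 member loops (40%) had hypoxia and normoxia libraries that did not overlap, 13 higher and 7 lower, where 36.9% of all tested circRNAs did. In LN229 these were 3 of 50 (6%, all higher), where 9.84% of all tested did. In both lines and in the same direction there were 0, where 2.87% of all tested were. These shares of member loops were not tested against those of all circRNAs.

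**Figure D4:**
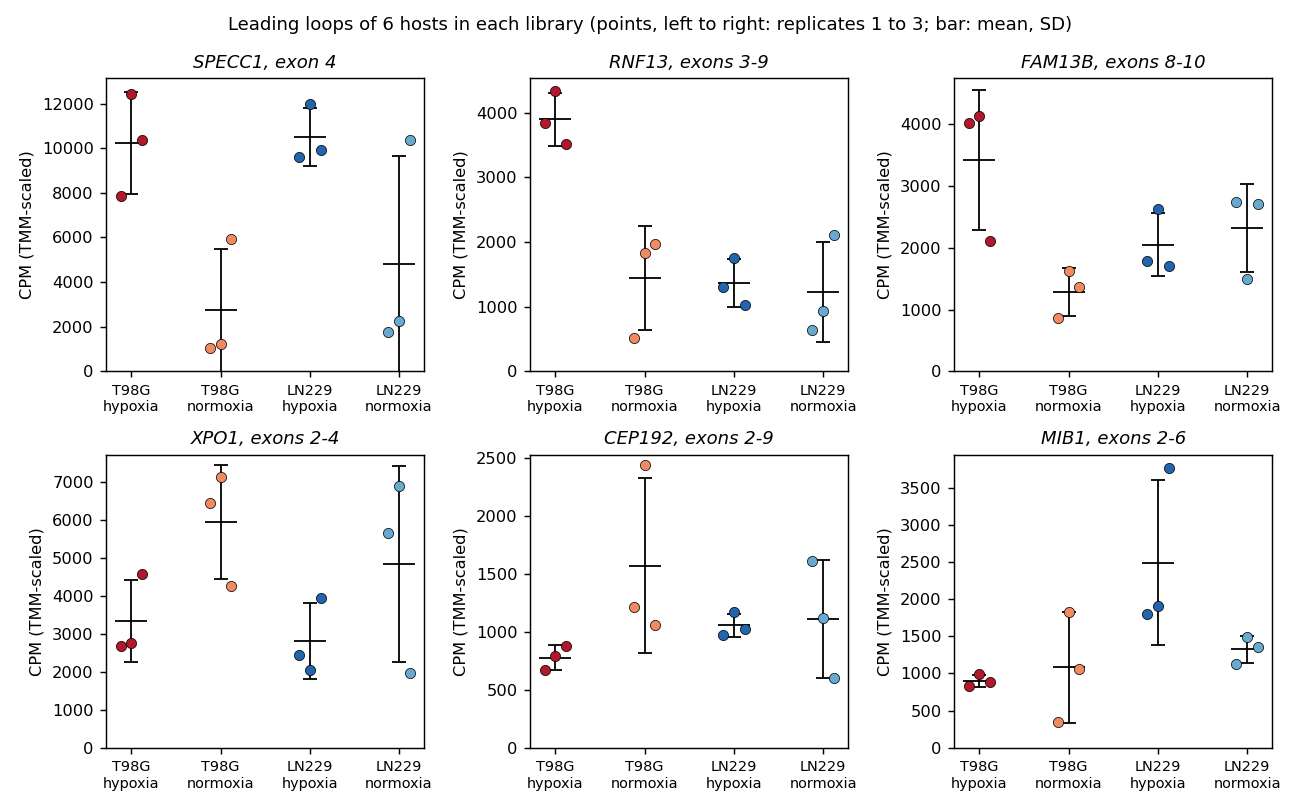
TMM-scaled CPM (vertical axis, starting at 0) of the leading loop of SPECC1, RNF13, FAM13B, XPO1, CEP192 and MIB1 in each of the 12 libraries; points run from replicate 1 to 3 within a group, bars are means and whiskers SD (n = 3), clipped at 0. In SPECC1, replicate 3 of LN229 normoxia stands at the hypoxia level, apart from replicates 1 and 2, which pulls the LN229 normoxia mean to 4799 ± 4840 CPM.

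No difference between the lines passed. RNF13 exons 3 to 9 was higher in T98G than in LN229, averaged over oxygen (log2 fold change 0.85, SE 0.36), and the MIB1 loop of exons 2 to 6 was lower (-0.88, SE 0.38), with edgeR adjusted p = 0.97 for both. The next were ATXN10 exons 2 to 6 (0.93, SE 0.60) and KMT2C exons 4 to 6 (0.66, SE 0.47), higher in T98G, and SNX13 exons 6 to 9 (-0.87, SE 0.58) and ANKIB1 exons 2 to 5 (-0.69, SE 0.47), lower in T98G, all with adjusted p = 0.97. The MIB1 loop had 5 reads in each T98G hypoxia library and 2, 9 and 7 in T98G normoxia, against 11, 13 and 22 in LN229 hypoxia and 7, 8 and 9 in LN229 normoxia. No member loop had T98G and LN229 libraries that did not overlap at both oxygen levels, where 0% of all tested circRNAs did.

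Summed over their loops, 86 of the 113 hosts had enough reads among 375 hosts tested, and 0 passed in hypoxia against normoxia averaged over both lines, where 1.07% of all hosts did (edgeR quasi-likelihood, Benjamini-Hochberg); 14 had an unadjusted p under 0.05, where 17.9% of all hosts did, and DESeq2 called 0. Between T98G and LN229, 0 passed (0% of all hosts), 7 had p under 0.05 (4.53% of all hosts) and DESeq2 called 0. The smallest oxygen p was that of ABCC4, an organic anion and drug efflux pump gene. Its loops had 9, 11 and 6 reads in T98G hypoxia, against 1, 1 and 3 in T98G normoxia, and 10, 9 and 9 in LN229 hypoxia, against 2, 1 and 8 in LN229 normoxia. The groups did not overlap in either line (log2 fold change 1.83, SE 0.46, edgeR adjusted p = 0.0637). ARHGEF28 was the only other member host with hypoxia libraries all above normoxia libraries in scaled reads in both lines (1.95, SE 0.61, edgeR adjusted p = 0.107). Unscaled, it had 7, 4 and 2 reads in T98G hypoxia, against 2, 0 and 2 in T98G normoxia, so these groups met at 2 reads. In LN229 it had 4, 6 and 6 in hypoxia, against 1 in each normoxia library. Only hypoxia libraries held the 5 reads needed for testing, namely T98G replicate 1 and LN229 replicates 2 and 3. ARHGEF28 was thus tested only through the condition in which it was high. ABCC4 and ARHGEF28 were 2 of 86 hosts (2.33%), where 2.67% of all hosts had groups that did not overlap in both lines. Within T98G, 0 hosts passed (0% of all hosts), 19 had p under 0.05 (18.7% of all hosts) and 31 had oxygen groups that did not overlap (32.8% of all hosts). Within LN229, 0 passed (0%), 6 had p under 0.05 (7.47% of all hosts) and 7 had groups that did not overlap (9.87% of all hosts). For the response in T98G less that in LN229, 0 passed (0%) and 6 had p under 0.05 (7.47% of all hosts). Between the lines, PARD3, a cell polarity gene, was the 1 host with T98G above LN229 in all libraries within each oxygen level, in scaled reads, where 0.533% of all hosts were so separated (log2 fold change 1.08, SE 0.47, edgeR adjusted p = 0.806). Unscaled, PARD3 had 3 reads in each T98G normoxia library, against 1, 2 and 3 in LN229 normoxia, so these groups met at 3 reads. In hypoxia it had 10, 6 and 7 in T98G, against 4, 3 and 2 in LN229. Only the T98G hypoxia libraries held the 5 reads needed for testing, so PARD3 was tested only through a group in which it was high. SNX13, a sorting nexin gene, lay lower in hypoxia, with 6, 4 and 6 reads in T98G hypoxia, against 24, 15 and 8 in T98G normoxia, and 6, 10 and 10 in LN229 hypoxia, against 19, 19 and 7 in LN229 normoxia (-1.18, SE 0.37, adjusted p = 0.107). Without LN229 normoxia replicate 3, 13 of 82 member hosts passed for oxygen, where 14.5% of all hosts did, ABCC4 (log2 fold change 2.48), ARHGEF28 (1.99) and SNX13 (-1.29) among them. Without T98G normoxia replicate 3, 4 of 82 passed (3.68% of all hosts), ABCC4 (2.13) and SNX13 (-1.36) among them, and without both libraries 13 of 78 passed (20.1% of all hosts).

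Loop switching, a change in how a host's reads divide among its loops, was tested for hosts with at least 2 exonic loops of 10 or more reads. This held for 60 of the 113 hosts, with 204 loops, among 219 hosts tested. For oxygen averaged over the lines, 0 passed, where 0% of all hosts did (edgeR exon usage test on loops, Benjamini-Hochberg over all hosts); 4 member hosts had p under 0.05 (6.67%), where 7.31% of all hosts did. Between T98G and LN229, 0 passed (0% of all hosts) and 2 had p under 0.05 (3.33%), where 6.39% of all hosts did. For 65 hosts the same loop had the most reads in T98G and in LN229, for 30 a different one, and 18 had ties. In hypoxia and normoxia the loop was the same in 58, different in 25, and tied in 30. A single loop led in all 12 libraries in 5 hosts, namely SPECC1, XPO1, RARS, MPP6 and FAM13B.

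The smallest oxygen p for switching was that of DLG1, whose 3 tested loops all start at exon 13 and end at exon 14, 15 or 16 (junctions shown above). The shortest, exons 13 to 14, had 3, 4 and 1 reads in T98G hypoxia, against 0 in each T98G normoxia library, and 0, 4 and 6 in LN229 hypoxia, against 0, 0 and 1 in LN229 normoxia. The longest, exons 13 to 16, had 0, 0 and 1 reads in T98G hypoxia, against 2, 2 and 4 in T98G normoxia, and 1, 2 and 2 in LN229 hypoxia, against 1, 5 and 1 in LN229 normoxia. As a share of DLG1 reads pooled over the 3 libraries of a group, exons 13 to 14 held 34.8% in T98G hypoxia against 0% in T98G normoxia, and 30.3% in LN229 hypoxia against 7.14% in LN229 normoxia. Exons 13 to 16 held 4.35% against 38.1% in T98G, and 15.2% against 50% in LN229, hypoxia given before normoxia. The loop of exons 13 to 15 stayed between 28.6 and 33.3% in the 4 groups. DLG1 had 14 to 33 reads per group. It did not pass (edgeR adjusted p = 0.11). It passed in the same test when LN229 normoxia replicate 3 (adjusted p = 0.0167) or T98G hypoxia replicate 3 (0.0321) was left out. Without normoxia replicate 3 of both lines, 0 of 59 member hosts passed for oxygen, where 0% of all hosts did. No member host passed with another scaling, with the replicate block or with cutoffs of 5 or 20 reads per loop.

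The other hosts with small oxygen p were DNA2, KMT2C, IBTK and DHTKD1, with adjusted p of 0.54, 0.555, 0.64 and 0.655. In DNA2, a helicase and nuclease gene of DNA replication, the loop of exons 3 to 6 had 7 of 29 reads in T98G hypoxia against 3 of 23 in T98G normoxia, and 7 of 20 in LN229 hypoxia against 0 of 18 in LN229 normoxia. In KMT2C, the loop of exons 4 to 9 held 8% of the reads in T98G hypoxia against 20% in T98G normoxia, and 0% in LN229 hypoxia against 20% in LN229 normoxia, while the leading loop of exons 4 to 6, which shares its start, held 33.3 to 48% in the 4 groups. The leading DNA2 loop of exons 3 to 4 held 45 to 61.1%. IBTK, a gene of an inhibitor of Bruton tyrosine kinase, had 6 of its reads on exon 12 alone in T98G hypoxia against 0 in T98G normoxia, and 4 in LN229 hypoxia against 3 in LN229 normoxia, and its loop of exons 13 to 16 had 2 or 3 in every group. DHTKD1, a mitochondrial dehydrogenase gene, had 6 reads on exons 2 to 6 in T98G hypoxia against 5 in T98G normoxia, and 5 in LN229 hypoxia against 0 in LN229 normoxia, beside 7 to 11 per group on its leading loop of exons 2 to 16. Between the lines, the smallest p were those of ASH1L, a histone methyltransferase gene, UGGT2, a glycoprotein glucosyltransferase gene, and MIB1, with adjusted p of 0.754, 0.754 and 0.812. In ASH1L, the loop of exons 4 to 5 held 23.5% in T98G hypoxia and 13% in T98G normoxia, against 28.6% in LN229 hypoxia and 58.3% in LN229 normoxia, and the loop of exon 5 alone 17.6% and 34.8% in T98G, against 9.52% and 25% in LN229, hypoxia given before normoxia. In MIB1, the loop of exons 7 to 10 had 0 reads in T98G hypoxia and 1 in T98G normoxia, against 9 in LN229 hypoxia and 3 in LN229 normoxia. In SUCO (adjusted p = 0.812), the loop of exons 2 to 19 held 31.2 to 58.3% and that of exons 2 to 6 held 10 to 37.5% in the 4 groups. In UGGT2, the loop of exons 6 to 10 had 8 reads in T98G hypoxia and 4 in T98G normoxia, against 1 in LN229 hypoxia and 1 in LN229 normoxia. In MKLN1, which encodes muskelin (adjusted p = 0.88), the loop of exons 3 to 6 held 52.0% of the reads in T98G hypoxia and 31.4% in T98G normoxia, against 29.7% in LN229 hypoxia and 12.1% in LN229 normoxia.

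**Figure D5:**
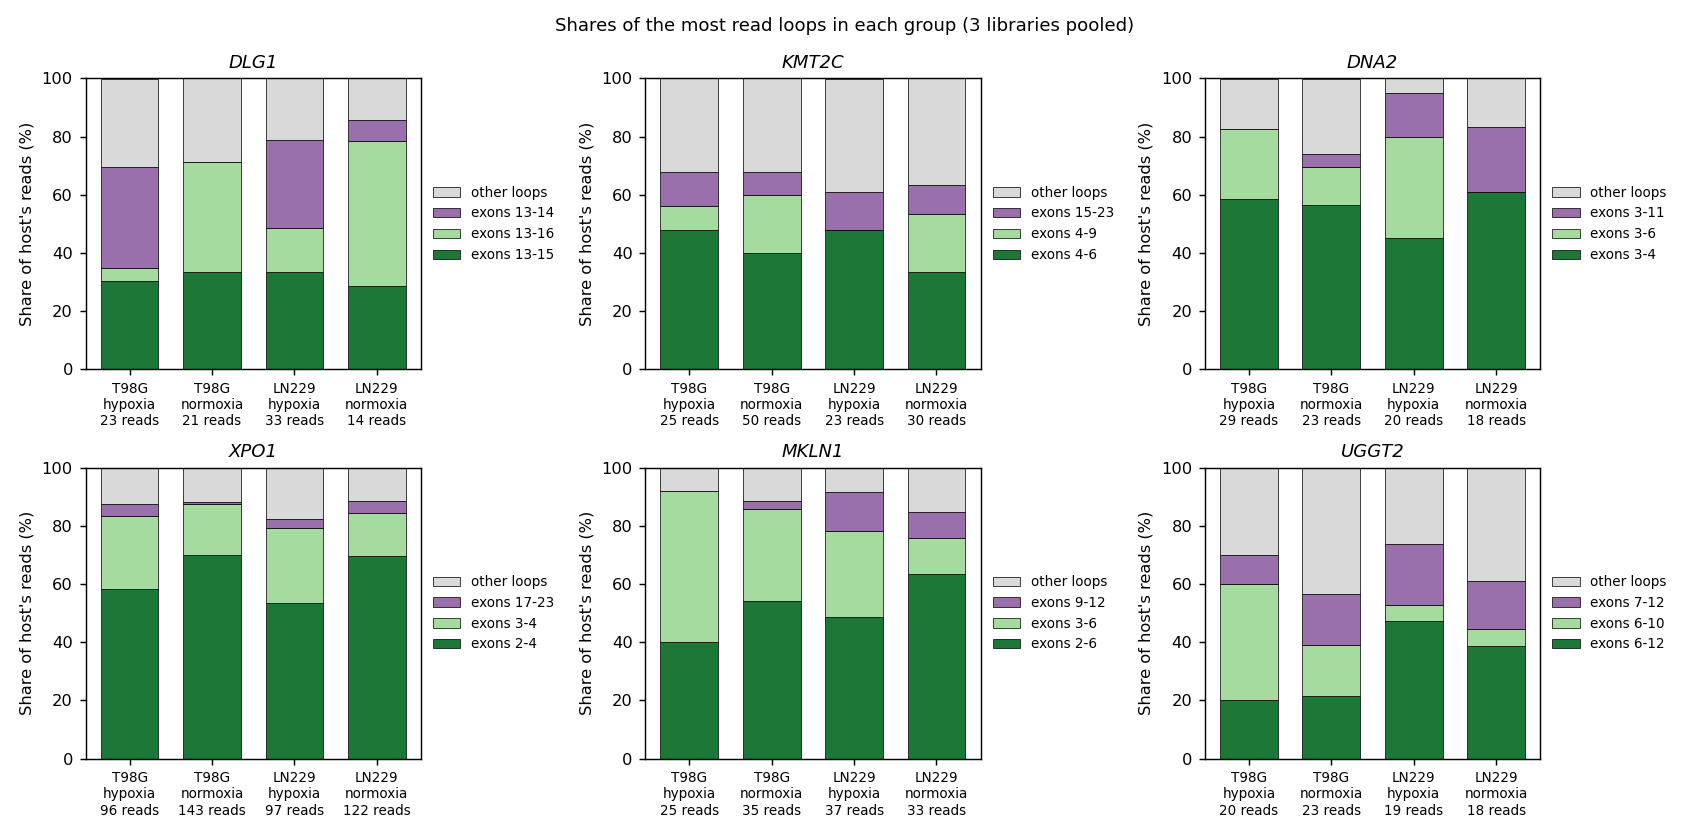
Share of each host's exonic junction reads (%, bars stacked to 100) on its 3 most read loops and on all its other loops, in each group with the 3 libraries pooled; the number under each bar is the host's reads in that group. In DLG1 the loop of exons 13 to 14 holds 34.8% and 30.3% in hypoxia, against 0% and 7.14% in normoxia, for T98G and LN229 in turn, while in XPO1 the loop of exons 2 to 4 leads in all 4 groups.

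The leading loop's share was also compared library by library in the 21 member hosts with at least 5 exonic reads in every library, among 42 such hosts. None passed after adjustment over the 42 hosts, where 0% of the 42 did, for oxygen or for line. For oxygen, 4 of the 21 had an unadjusted exact permutation p at or under 0.05, where 9.52% of the 42 hosts did, and for line 0 (0% of the 42). Of the 4 hosts with oxygen p at or under 0.05, XPO1 had the most reads. Its exons 2 to 4 loop held 12.7 percentage points less of the XPO1 reads in hypoxia than in normoxia (exact permutation, two-sided, p = 0.05, adjusted p = 0.525). Its second loop, exons 3 to 4, which shares the end, had 8, 9 and 7 reads in T98G hypoxia, against 8, 8 and 9 in T98G normoxia, and 10, 9 and 6 in LN229 hypoxia, against 7, 6 and 5 in LN229 normoxia, with groups that overlapped in both lines. PICALM had the smallest p, with a leading share 13.3 points higher in hypoxia (exact permutation p = 0.005, the smallest the design can give, adjusted p = 0.21), on 33 reads in all. PCNXL2 and CEP192 had leading shares 18 and 9.05 points higher in hypoxia (exact permutation p = 0.025 and 0.04, adjusted p = 0.525 for both). In RARS the leading loop held 64.3 to 92.3% of the reads in every library, with a difference of 0.138 points for oxygen (exact permutation p = 0.99) and 1.74 points for line (p = 0.745).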

How the data were processed

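Total RNA (TRIzol, Ribo-Zero depletion, per the labels' protocols) from 12 libraries was sequenced. The table deposited by the authors gives raw back-splice junction read counts for each circRNA, log2 values they had scaled between libraries by a method not stated (not used in tests), and a predicted spliced length. CASAVA 1.8, BWA and hg19 are named, without their roles, in the submitters' processing notes; the circRNA caller was not given in the sources used here. Where nothing shows separate cultures, p-values measure only the spread between libraries, which may be technical.

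The counts were fitted with edgeR 4.0.16 in R 4.3.3 (4 groups, TMM scaling, quasi-likelihood F test, Benjamini-Hochberg over all tested circRNAs or hosts, threshold 0.05), for features with 5 reads in at least 3 libraries. The common dispersion of loops was 0.261. Switching was tested with edgeR's diffSpliceDGE on loops of 10 or more reads. Values per library were compared with exact permutation tests within the other factor, over 400 arrangements (Python 3.11.15, scipy 1.17.1, numpy 2.4.6, pandas 2.3.3). DESeq2 1.42.0 was an alternative; others were scaling, filters, a replicate block, CYP24A1 loops left out, separate fits and libraries left out. The procedures were tested on simulated data. Exon numbers and junction letters came from GENCODE 29 (GRCh38) transcripts, with no conversion of coordinates.

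The members, gene lists and tests were chosen with earlier results of these data known. Named were the 10 hosts with most loops and with most reads, the 5 with the highest and lowest leading share (60 or more reads), the 5 with most loops on 1 start or end, the loops with the 3 smallest p in each direction and comparison, and the 5 hosts with the smallest switching p.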

Additional observations from a re-analysis of the deposited data

Results flagged for a closer look

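Circles of the same hosts that the deposited table does not class as exonic were not used in the comparisons and still held 328 reads over the 12 libraries, with 19 to 33 in each library. They were 92 loops of 57 hosts: 63 sense overlapping loops with 248 reads, 27 intronic loops with 76 reads and 2 antisense loops with 4 reads. The most read was a sense overlapping loop of MPP6 at chr7:24663282-24708279 with 61 reads, whose start lies 3 nt from that of the leading exonic loop. No library was without such reads, and no group comparison was made on them.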

How the results depend on the processing

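Where no member loop passed, alternatives gave these counts, each beside the percentage of all features tested in the same fit that passed. For LN229 oxygen, 2 passed without normoxia replicate 3 of both lines (6.48%) and 0 to 1 with 1 library left out (5.24% at the highest count). For T98G oxygen, 1 passed with no filter (0.0945%), 6 without normoxia replicate 3 of both lines (18.1%), 5 in a fit of its own line (22.3%) and 0 to 4 with 1 library left out (12.7% at the highest count). For the average, 7 passed without normoxia replicate 3 of both lines (23.6%) and 0 to 5 with 1 library left out (17.9% at the highest count). For the lines and for the difference of responses, 0 to 0 passed with 1 library left out. On host sums for oxygen, 2 passed with no filter (0.527%), 13 without normoxia replicate 3 of both lines (20.1%) and 0 to 13 with 1 library left out (14.5% at the highest count). Switching for oxygen gave 0 without normoxia replicate 3 of both lines (0%). With 1 library left out it gave 0 to 1 (0.508% without LN229 normoxia replicate 3, 0.524% without T98G hypoxia replicate 3). With the replicate number as a block, 1 loop passed in T98G (3.69%), 1 for the average (4.1%) and 1 host for oxygen (1.07%). The numbers were not taken to pair the libraries: correlations of same-numbered libraries (deviations from the group mean) ran from -0.545 to 0.674, with 3 of 18 above 0.1. Among libraries of different number they ran from -0.542 to 0.555, with 8 of 36 above 0.1. The 3 same-numbered pairs above 0.1 joined T98G and LN229 normoxia (r = 0.462, 0.39 and 0.674 for replicates 1, 2 and 3).

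The differences per library, none past the test, changed sign in places. Hypoxia minus normoxia was 1.33 for the read share without CYP24A1 loops, and with hosts of 10 or more loops 3.19 for distinct loops and -2.4 for the leading share. T98G minus LN229 was 0.164 for the read share with loops of 2 or more reads and 0.585 without CYP24A1 loops, and for the leading share 0.153 with 6 or more loops per host and 0.03 with 10 or more. With 1 library left out, hypoxia minus normoxia ran from -1.04 to -0.0164 (read share), -9.44 to -1.34 (distinct loops) and 1.01 to 2.02 (leading share), and T98G minus LN229 from -0.653 to 0.301, -5.85 to 1.82 and -1.35 to -0.224. The cause was not tested. A threshold of 6 loops gives 239 hosts and 1983 loops, one of 10 gives 46 and 610. Of 526 alternatives for the named loops, 507 kept direction and side of the threshold, 19 newly passed and 0 reversed. Depth limits the loop tests to 50 of 1181 loops.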
